A study of Mus musculus with 384 samples.

Results

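The genes described here are 10 germline genes whose promoters are known from other work to be methylated in somatic cells: Dazl, Ddx4, Mael, Sycp1, Sycp3, Taf7l, Tex101, Hormad1, Stk31 and Slc25a31. They were chosen by name. Of the 31617 genes with a row in the count table, 4 were members (Sycp3, Sycp1, Ddx4 and Tex101), and Dazl, Mael, Taf7l, Hormad1, Stk31 and Slc25a31 were not analysed here. DNA methylation was not measured in these cells, so the transcripts are read without the mark that the genes are known for.

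The data are single-cell RNA sequencing of mouse pluripotent cell lines, 96 cells a line. Formative stem (FS) cells, which are lines derived from pre-streak epiblast, were represented by lines 5ar1 and 5ar2 in AloXR, a medium of low activin A with the tankyrase inhibitor XAV939 and the retinoic acid receptor inverse agonist BMS493. Epiblast stem cells (EpiSCs), the primed pluripotent lines, were represented by AFX6 in AFX (activin A, Fgf2 and XAV939) and by AF32 in AF (activin A and Fgf2). All 4 lines came from epiblast of 129 or CD1 embryos, grew in N2B27 on fibronectin without feeders or serum, and each is a line of its own. Line and medium therefore cannot be told apart within the EpiSC group. The FS medium differed from both EpiSC media, so kind of line and medium cannot be told apart between the groups either. The strain of each line is not given in the sources used here.

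Cells with at least 3000000 counts were kept: 90 of 5ar1, 90 of 5ar2, 66 of AFX6 and 80 of AF32, 326 in all, with 3022666 to 6686007 counts each. The other 58 cells, 30 of them from AFX6, fell under the minimum. FS cells had more detected genes, with medians of 11371 (5ar1) and 11568 (5ar2), than EpiSCs, with 10328 (AFX6) and 10331 (AF32). Pou5f1, the transcription factor that marks pluripotent cells, lay between 490 and 644 CPM in the 4 line sums and was found in every kept cell. CPM are counts per 1000000 counts, of a cell or of the summed kept cells of a line (the line sum).

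Germline genes of this kind serve meiosis, transposon defence and the maturation of eggs and sperm. In the early embryo their CpG-rich promoters carry repressors of the Polycomb PRC1.6 type, which reach the DNA through the Mga and Max proteins at E-boxes and through E2f6 at E2F sites. Around implantation Dnmt3b and its partners methylate these promoters, and the methylation then holds the genes silent in somatic cells. Epiblast lines stand close to the stage at which that takes place.

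Promoter windows were taken from RefSeq on GRCm38.p6, from 250 bases before to 50 bases after the start of each gene, and all 10 genes had one. Each of the 10 windows held at least 15 CpGs, with a median of 23, against a median of 7 over all 32851 windows, of which 34.6% held 15 or more. The highest count was 38 in Ddx4 and the lowest 15 in Sycp3. Stk31 had 29, Dazl 28, Hormad1 and Mael 24, Slc25a31 22, Sycp1 21, Tex101 19 and the X-linked Taf7l 17. For genes with several starts the first window was used.

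The E-box CACGTG, a palindrome, and the E2F motif TCCCGC with its reverse complement GCGGGA were searched on both strands. The E-box was present in 8 of 10 windows, the exceptions being Dazl and Tex101, against 7.15% of all windows and 11.3% of those with at least 15 CpGs. An E2F match was present in 6 of 10 (Ddx4, Mael, Sycp1, Sycp3, Hormad1 and Slc25a31), against 20.0% of all windows and 45.4% of the CpG-rich ones. All 6 also held an E-box, a combination found in 1.99% of all windows and 5.04% of the CpG-rich ones. Dazl and Tex101 had neither, which says only that these letters were not in the windows. A match is a description of the sequence and not a measured binding site.

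**Figure D1:**
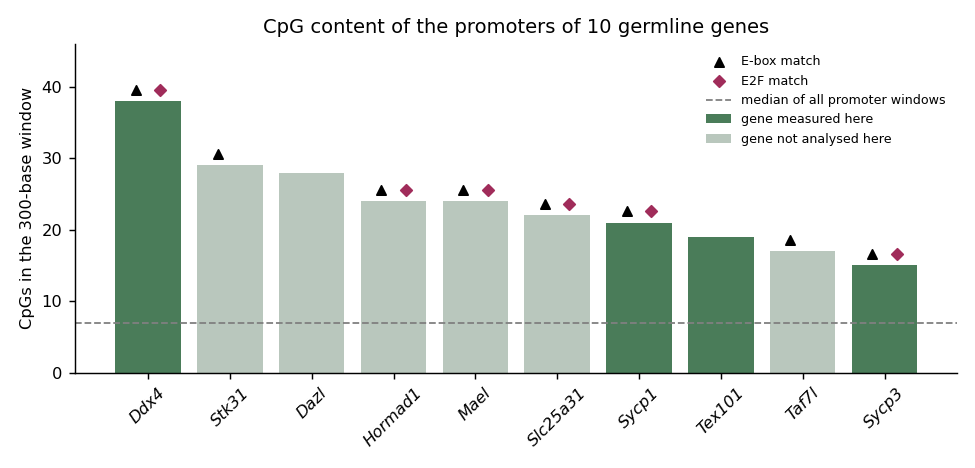
CpGs in the 300-base promoter window (bars, y axis) of each of the 10 genes (x axis), dark for the 4 measured genes and pale for the 6 not analysed here. Triangles mark windows with an E-box and diamonds windows with an E2F match, and the dashed line is the median of 7 CpGs over all windows, below every one of the 10 bars.

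The upstream sequences of the 4 measured genes are shown because the motif content of their windows separates them. Sycp3, Sycp1 and Ddx4 hold both motifs there and Tex101 holds neither. Each is written 5′ to 3′ on the strand of the gene, with E-boxes and E2F matches in capitals. It ends before the first annotated exon base or, where none comes earlier, at the RefSeq start. Position -1 is the base before the RefSeq start and there is no position 0. The Sycp3 stretch is chr10:88459337-88459568 on the plus strand, with E-boxes from -64 and -43 and an E2F match from -147. The Sycp1 stretch is chr3:102936101-102936350 on the minus strand, with an E-box from -94, and its E2F match starts at base 3 of the transcript, outside the stretch. The Ddx4 stretch is chr13:112652476-112652560 on the minus strand, and its motifs lie downstream of it, inside an annotated alternative first exon, so they are given with short flanks (E2F match from -136, in chr13:112652429-112652458, and E-box from -29, in chr13:112652322-112652351). The Tex101 stretch is chr7:24672051-24672300 on the minus strand. The annotated Tex101 gene reaches further upstream, to base 24676675, and the sequence around that end was not searched for motifs.
Sycp3: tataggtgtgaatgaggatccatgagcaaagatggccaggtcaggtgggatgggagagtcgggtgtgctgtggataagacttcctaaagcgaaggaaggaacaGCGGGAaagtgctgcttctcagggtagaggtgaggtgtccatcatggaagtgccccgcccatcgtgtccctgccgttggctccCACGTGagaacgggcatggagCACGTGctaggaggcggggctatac
Sycp1: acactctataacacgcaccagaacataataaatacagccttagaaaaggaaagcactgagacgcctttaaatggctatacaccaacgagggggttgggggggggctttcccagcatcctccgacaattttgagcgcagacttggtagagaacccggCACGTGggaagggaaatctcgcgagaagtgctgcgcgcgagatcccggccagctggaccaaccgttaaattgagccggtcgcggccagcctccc
Ddx4: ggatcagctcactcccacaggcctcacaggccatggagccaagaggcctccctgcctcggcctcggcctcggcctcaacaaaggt
Ddx4, E2F match: tccgtccatgggGCGGGAagtcgcgcgccg
Ddx4, E-box: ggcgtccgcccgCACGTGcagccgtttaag
Tex101: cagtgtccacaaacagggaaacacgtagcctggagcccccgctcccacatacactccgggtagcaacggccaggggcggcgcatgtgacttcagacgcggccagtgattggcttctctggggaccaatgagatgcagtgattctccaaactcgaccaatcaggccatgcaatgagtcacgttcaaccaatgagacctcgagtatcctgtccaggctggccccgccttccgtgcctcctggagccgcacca

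Sycp3 codes for a lateral element protein of the synaptonemal complex, the scaffold that holds homologous chromosomes together in meiosis. The gene lies at chr10:88459569-88473236 on the plus strand. Its line sum was highest in 5ar2 with 8.72 CPM, followed by 5ar1 with 3.88, AFX6 with 1.224 and AF32 with 0.343 CPM, so that both FS lines lay above both EpiSC lines. Summed over each group the level was 6.314 CPM in FS cells and 0.768 in EpiSCs, a ratio of 8.22.

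The level of Sycp3 came from a part of the cells. At least 1 CPM was found in 23 of 90 5ar1 cells (25.6%, exact Clopper-Pearson 95% interval 16.9 to 35.8%) and in 37 of 90 5ar2 cells (41.1%, 30.8 to 52.0%). In the EpiSC lines it was found in 4 of 66 AFX6 cells (6.06%, 1.676 to 14.8%) and in 3 of 80 AF32 cells (3.75%, 0.780 to 10.6%). Neither FS interval touched an EpiSC interval, but the intervals hold the error of counting alone and leave out how lines vary. At 5 CPM or more the numbers were 18, 32, 4 and 1 cells in the same order, so most cells past the lower limit were also past the higher one. The remaining cells were mostly without a single read of the gene: 76 of 80 in AF32, 61 of 66 in AFX6, 62 of 90 in 5ar1 and 45 of 90 in 5ar2.

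Among the cells with at least 1 CPM of Sycp3 the median was 12.2 CPM in 5ar1, 12.3 in 5ar2 and 11.9 in AFX6. It was 4.35 CPM in the 3 cells of AF32. The highest cell reached 61.3 CPM in 5ar2, 53.6 in AFX6, 47.7 in 5ar1 and 18.0 in AF32. The means of these cells were further apart than the medians, at 14.9 ± 11.2 CPM (SD, 23 cells) in 5ar1, 21.9 ± 19.0 (37 cells) in 5ar2, 20.6 ± 22.2 (4 cells) in AFX6 and 7.83 ± 8.91 (3 cells) in AF32. More cells of 5ar2 than of 5ar1 thus had Sycp3, and the upper end of its level was higher there. The counting intervals of the 2 shares overlapped (30.8 to 52.0% and 16.9 to 35.8%), and the difference between these lines was not tested. The 5 cells with the most reads gave 46.7% of the counts in 5ar1 and 34.2% in 5ar2, and all of them in both EpiSC lines, where 1 cell held 58.7% (AFX6) and 82.8% (AF32).

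**Figure D2:**
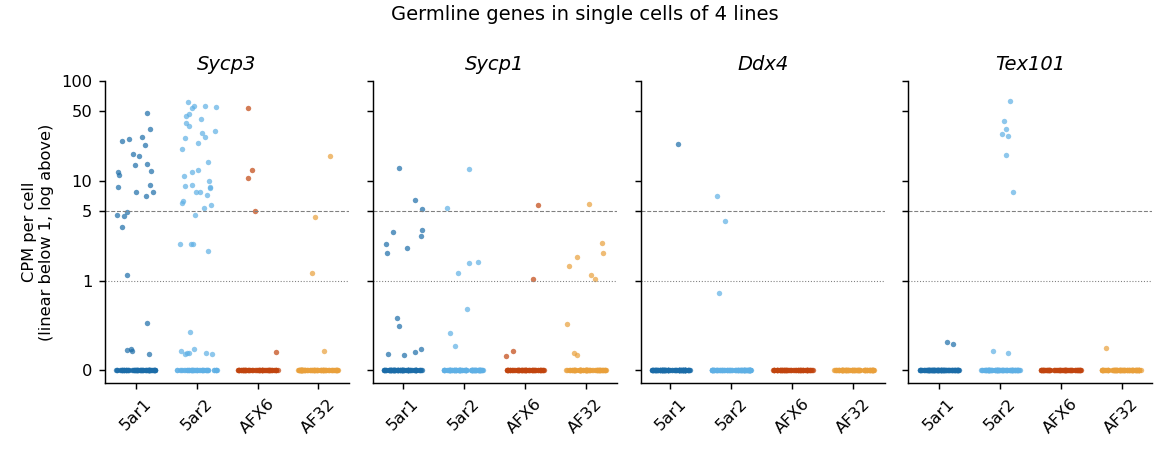
CPM per cell (y axis, linear from 0 to 1 and logarithmic above) of Sycp3, Sycp1, Ddx4 and Tex101 in the 326 kept cells, 1 point a cell, by line (x axis, FS lines in blue and EpiSC lines in orange), with lines at 1 and 5 CPM. Most cells lie at 0 for every gene, and the cells with Sycp3 form a cloud above 1 CPM that is filled in 5ar1 and 5ar2 and holds 4 and 3 cells in AFX6 and AF32.

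Sycp3 shares 660 of its 1264 exon bases with Chpt1, a phospholipid synthesis gene on the opposite strand, and Smart-seq2 does not mark strand. Chpt1 stood at 6.438 CPM in 5ar1, 3.37 in AF32, 3.03 in 5ar2 and 1.741 in AFX6, an order that differs from that of Sycp3. No read of Chpt1 was counted in 25 of the 37 Sycp3 cells of 5ar2, and in 5ar1 in 5 of 23, in AFX6 in 4 of 4 and in AF32 in 2 of 3. In 5ar1 the median of Chpt1 was 4.42 CPM in the Sycp3 cells and 0.173 CPM in the others, whereas in 5ar2 it was 0 and 0.187 CPM. How reads in the shared bases were assigned is not given in the sources used here, and the part of Chpt1 in the Sycp3 counts of 5ar1 was not tested.

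In the FS lines, cells with Sycp3 were of about the same depth as the others. Their median total was 4999062 counts in 5ar1 and 4762841 in 5ar2, against 4805301 and 4870195 in the cells under 1 CPM. The median number of detected genes was 11442 and 11483 in the cells with Sycp3 and 11360 and 11673 in the others. In the EpiSC lines, with 4 (AFX6) and 3 (AF32) such cells, the median totals were 5117753 and 3681583, against 5069883 and 4404252 in the others. Detected genes there had medians of 10950.5 and 10580, against 10312.5 and 10310. With each kept cell thinned to 3000000 counts, the numbers of cells with at least 1 CPM stayed at 23, 37, 4 and 3.

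Sycp1 codes for the transverse filament protein of the same complex, the part that bridges the paired axes. It lies at chr3:102818499-102936100 on the minus strand. In the line sums it had 0.473 CPM (5ar1), 0.294 (5ar2), 0.194 (AF32) and 0.0812 (AFX6). At least 1 CPM was found in 9 of 90 5ar1 cells (10.0%, 4.68 to 18.1%), 5 of 90 5ar2 cells (5.56%, 1.828 to 12.5%), 2 of 66 AFX6 cells (3.03%, 0.369 to 10.5%) and 7 of 80 AF32 cells (8.75%, 3.59 to 17.2%). AF32 lay between the FS lines, so the groups overlapped in the share of cells, although the line sums did not overlap. That separation depended on the depth minimum: with cells of at least 2000000 counts, AF32 stood at 0.505 CPM, above 5ar1 with 0.468 and 5ar2 with 0.289. Its levels were low where it was found, with medians of 3.12, 1.542, 3.40 and 1.727 CPM in those cells and a highest cell of 13.6 CPM, in 5ar1.

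Few cells had both Sycp3 and Sycp1. Both genes were at 1 CPM or more in 3 cells of 5ar1, 1 of 5ar2 and in 0 cells of the EpiSC lines. In 5ar1, 3 of 23 Sycp3 cells had Sycp1 (13.0%) against 6 of 67 others (8.96%). In 5ar2 it was 1 of 37 (2.703%) against 4 of 53 (7.55%). The order was opposite in the 2 lines, and with so few cells no relation between the 2 genes was detectable at this depth.

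Ddx4 (Vasa), an RNA helicase of the germ granules, lies at chr13:112598333-112652475 on the minus strand. It had 128 counts in 5ar1, 58 in 5ar2 and 0 in both EpiSC lines, or 0.297 and 0.133 CPM in the FS line sums. The 128 counts of 5ar1 were all in 1 cell at 23.6 CPM. In 5ar2, 2 cells were at 7.14 and 3.99 CPM, and another cell had reads under 1 CPM. That is 1 of 90 cells (1.111%, 0.0281 to 6.04%) and 2 of 90 cells (2.222%, 0.270 to 7.80%) with at least 1 CPM. A count of 0 of 66 AFX6 cells allows a share of up to 4.55%, and 0 of 80 AF32 cells a share of up to 3.75%, so the shares of the FS lines lay within what the EpiSC cells could have held unseen. With all its counts in 4 FS cells, no fold between the groups is given.

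Other genes were looked at in the 3 FS cells with at least 1 CPM of Ddx4. Pou5f1 was at 559 to 708 CPM in the 2 cells of 5ar2 and at 624 CPM in the cell of 5ar1. None of the 7 genes of primordial germ cell specification reached 1 CPM in any of the 3 cells. Of 34 other germline genes with a row, 4 reached 1 CPM in the 5ar1 cell, equal to the median of 4 over all cells of the line, and 3 and 4 in the 5ar2 cells, where the median was 3. Sycp3 was at 47.2 and 9.18 CPM in the 2 cells of 5ar2 and at 0 in that of 5ar1. Dmc1, the meiotic recombinase, was under 1 CPM in all 3 cells, where 52.2% of 5ar1 and 46.7% of 5ar2 cells reached it. With 3 cells these are values and not a comparison.

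Tex101 codes for a surface glycoprotein of germ cells that sperm need for fertility, and lies at chr7:24668007-24676675 on the minus strand. It had 1121 counts in 5ar2, against 2 in 5ar1, 0 in AFX6 and 1 in AF32. The counts of 5ar2 lay in 9 cells, of which 7 were at 1 CPM or more (7.78%, 3.18 to 15.4%), at 7.78 to 63.6 CPM with a median of 29.4. No cell of the other lines reached 1 CPM, which allows shares of up to 3.33% in 5ar1, 4.55% in AFX6 and 3.75% in AF32. Tex101 was thus seen at a level above 1 CPM in 1 line of the 4, and both FS lines were not alike in it.

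Of the 7 cells of 5ar2 with Tex101, 6 also had Sycp3 at 1 CPM or more, at 2.356 to 61.3 CPM, where 37 of all 90 cells of the line did. Dmc1, the meiotic recombinase, was at 1 CPM or more in 4 of the 7. The number of other germline genes per cell was 1 to 7 with a median of 5, against a median of 3 in the line. Pou5f1 was at 392 to 826 CPM in them, and 3 of the 7 cells had 1 or 2 of the 7 genes of primordial germ cell specification at 1 CPM or more. With 7 cells of 1 line these are values and not a comparison.

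**Figure D3:**
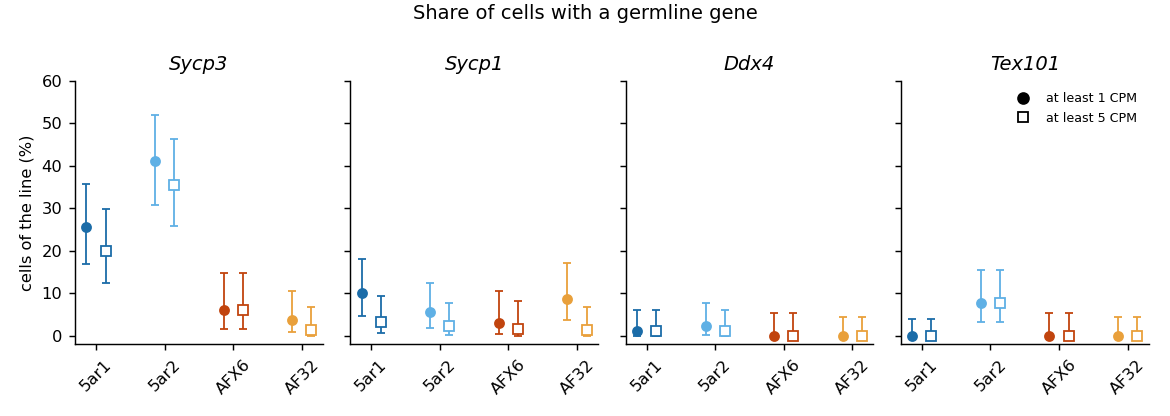
Share of the cells of each line (y axis, percent) with at least 1 CPM (filled circles) and at least 5 CPM (open squares) of each measured gene, with exact 95% intervals for counting error. The 2 FS lines stand at 25.6% and 41.1% for Sycp3 against 6.06% and 3.75% in the EpiSC lines, Sycp1 overlaps between the groups, and Tex101 stands above 0 in 5ar2 alone.

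Taken per length, in CPM per kilobase of exon, the level in the line sum of 5ar2 was 6.902 for Sycp3, 1.556 for Tex101, 0.0828 for Sycp1 and 0.0443 for Ddx4. In AF32 the order differed, with 0.271 for Sycp3, 0.0545 for Sycp1, 0.00170 for Tex101 and no count for Ddx4.

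At least 1 of the 4 genes was at 1 CPM or more in 30 of 90 5ar1 cells (33.3%, 23.7 to 44.1%) and 42 of 90 5ar2 cells (46.7%, 36.1 to 57.5%). In the EpiSC lines the number was 6 of 66 for AFX6 (9.09%, 3.41 to 18.7%) and 10 of 80 for AF32 (12.5%, 6.2 to 21.8%). Sycp3 gave most of these cells in the FS lines, and Sycp1 gave 7 of the 10 in AF32. The 4 genes were rarely together: 2 of them were found in 3 cells of 5ar1 and 7 of 5ar2, and 3 of them in 1 cell of 5ar2.

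FS cells were compared with EpiSCs with lines as replicates, 2 against 2, on the line sums of all 22606 genes that passed the filter on low counts. A gene was called at an adjusted p under 0.05 and a log2 fold change beyond 1.4 either way. By edgeR's quasi-likelihood test 0 genes were called in either direction, 0% of those tested, and so 0 members, with a lowest adjusted p of 0.190 over all genes and 3636 genes at an unadjusted p under 0.05. Sycp3 had a log2 fold change (FS over EpiSC) of 2.99 with an SE of 0.95 and an edgeR adjusted p of 0.253. For Sycp1 the log2 fold change was 1.4797 with an SE of 0.98 and an edgeR adjusted p of 0.577. Ddx4 had an edgeR adjusted p of 0.190 and passed the filter only through the FS lines, and Tex101 did not pass it. The common dispersion between lines of a group was 0.653, and none of the 3 members tested passed the test.

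DESeq2 on the same sums called 875 genes higher in FS cells, 3.93% of the 22277 with an adjusted p, and 933 lower, 4.19%. Sycp3, Ddx4 and Tex101 were among those higher, with DESeq2 adjusted p-values of 0.00881, 0.0447 and 0.00729. Ddx4 had all its 186 counts in 4 FS cells and 0 in EpiSCs. Tex101 had 1121 counts in 5ar2, 2 in 5ar1 and 1 in EpiSCs. The calls of Ddx4 and Tex101 thus rest on few FS cells over a group at or near 0, and no support is drawn from them. limma on the mean CPM per cell called 0 genes, with 3828 at an unadjusted p under 0.05. The call of a difference thus depended on the tool, and with 2 lines a group an exact permutation test of a single gene cannot give a p below 0.333.

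By ranks alone, the share of cells with at least 1 CPM was higher in both FS lines than in both EpiSC lines for Sycp3 and Ddx4, 2 of the 4 measured members. The same held for 39.2% of the 26358 genes with at least 1 CPM in any kept cell, and the opposite for 7.01%. A number of 2 of 4 is near that background. FS cells had more detected genes, as given above, and the part of that in the shares was not tested.

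Between the FS lines, Sycp3 was higher in 5ar2 than in 5ar1 by a factor of 2.248 (exact conditional 95% interval of the counts 2.122 to 2.383). Tex101 had a ratio of 555 with an interval of 153 to 4591, since its denominator is 2 counts. Of 14694 genes that reached 1 CPM in 1 of the 2 lines or in both, 13.3% differed by more than 2-fold either way. In counts the other 2 members were lower in 5ar2, Sycp1 by a ratio of 0.622 (0.494 to 0.779) and Ddx4 by a ratio of 0.449 (0.323 to 0.617), at under 1 CPM in both lines. For Ddx4 the number of cells ran the other way, 2 in 5ar2 against 1 in 5ar1, and 1 cell held 57.8% of the Sycp1 counts of 5ar2. Between the EpiSC lines, Sycp3 was higher in AFX6 than in AF32 by a factor of 3.57 (2.908 to 4.41), where 29.7% of 15013 genes differed by more than 2-fold, and Sycp1 was lower with a ratio of 0.419 (0.258 to 0.662). Each pair is 1 line against 1 line with no replicate, and with counts that lie in few cells the intervals are narrower than the spread between cells.

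Of 39 other germline genes on a fixed list, 34 had a row, and their shares are plotted beside the members. Syce2, which codes for a central element protein of the synaptonemal complex, had the highest level and was read in nearly all cells, at 74.4 and 87.9 CPM in 5ar1 and 5ar2 and 112 and 97.6 CPM in AFX6 and AF32. Zcwpw1, a reader of histone marks at meiotic recombination sites, stood at 27.4 and 17.1 CPM against 8.05 and 11.4. Stag3, a meiotic cohesin subunit, overlapped between the groups, with 20.5 and 7.54 CPM against 1.506 and 11.8. Tex19.1, which acts against transposons in the germline, stood at 16.2 and 4.87 CPM against 0.141 and 0.00562. The meiotic recombinase Dmc1, named after its values were seen, had 9.55 and 10.9 CPM against 0.448 and 0.0197, and was at 1 CPM or more in 52.2% and 46.7% of the FS cells, 1.515% of AFX6 and 0 of 80 AF32 cells.

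**Figure D4:**
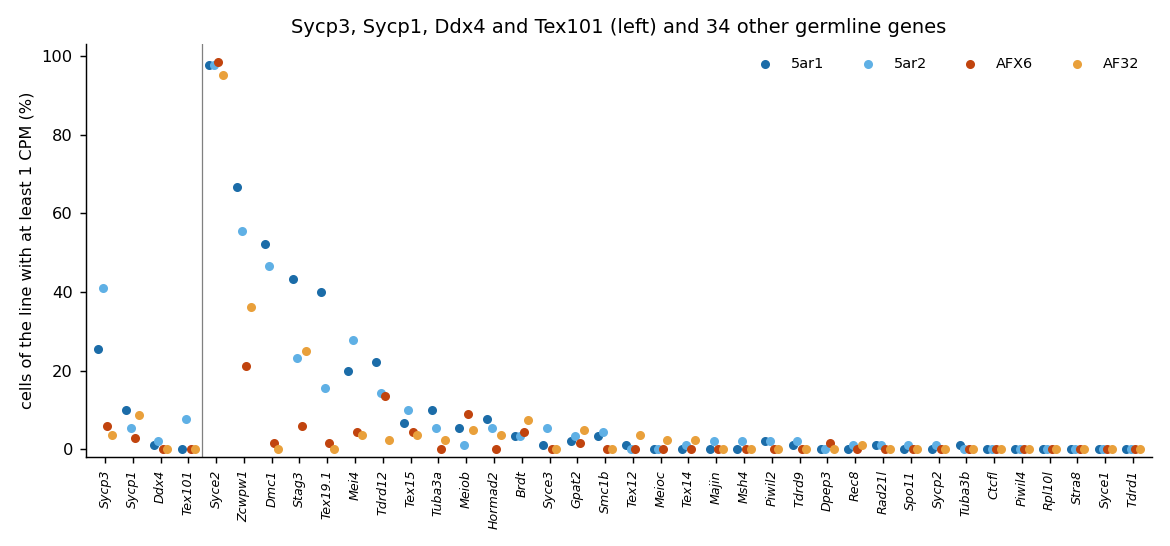
Share of the cells of each line with at least 1 CPM (y axis, percent) for the 4 measured members, left of the vertical line, and for 34 other germline genes, right of it, ordered by their highest line (points, 1 a line). Syce2 is near the top in all 4 lines, Zcwpw1, Dmc1, Tex19.1 and Mei4 are higher in both FS lines than in both EpiSC lines, and most of the others stay under 10% in every line.

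Over that list, 28 genes reached 1 CPM in a kept cell, and 13 of them had a higher share in both FS lines and 1 a lower share, against the 39.2% and 7.01% of all genes. In the edgeR fit 20 were tested, 0 were called (adjusted p under 0.05, 10 at an unadjusted p under 0.05), 13 had a positive log2 fold change and 7 a negative one. As shares, 50.0% had an unadjusted p under 0.05, 65.0% a positive log2 fold change and 60.0% one over 1, against 16.1%, 49.49% and 16.31% of all genes tested. DESeq2 called 7 of 23 higher in FS cells and 1 lower, against 3.93% and 4.19% of all genes with an adjusted p. Among the 7 were Piwil2, Tdrd9, Smc1b and Rad21l, with 0 or 1 count each in EpiSCs. The first 3 of these had reads in 5, 5 and 9 of 180 FS cells. The DESeq2 adjusted p-values were 0.000393 for Dmc1 and 4.71e-06 for Tex19.1, where edgeR gave 0.239 and 0.201. The median log2 fold change of the 20 genes was 1.143, against -0.01 over all genes tested. Of the 20 genes, 3 had 0 counts in EpiSCs, and Smc1b and Rad21l had 1 count each there. These genes passed the filter on low counts only through the FS lines, where they are high. The shares, the median and the DESeq2 calls above include them, so these values give no support for a difference of the list between the groups. The list was not tested as a set.

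Other germline genes were also looked at within the cells with Sycp3 of the FS lines. In 5ar2, Dmc1 was at 1 CPM or more in 25 of 37 Sycp3 cells (67.6%) and 17 of the 53 other cells (32.08%), and in 5ar1 in 12 of 23 (52.2%) and 35 of 67 (52.2%). Zcwpw1 was found in 73.0% of the Sycp3 cells and 43.4% of the others in 5ar2, and in 69.6% and 65.7% in 5ar1. For Stag3 the shares were 37.8% and 13.2% in 5ar2 and 47.8% and 41.8% in 5ar1. Tex19.1 was at 24.3% and 9.43% in 5ar2 and at 52.2% and 35.8% in 5ar1, and Mei4 at 29.7% and 26.4% in 5ar2 and at 17.4% and 20.9% in 5ar1. These shares are descriptions within a line, whose cells share medium and culture, and the differences were not tested. Over all 326 cells, the genes whose log2 values were most like those of Sycp3 among 11601 candidates were Platr14, Vmn2r97 and Trim54, with Pearson r of 0.26, 0.26 and 0.25, where 99% of the candidates had an absolute r under 0.17. These are weak correlations in sparse counts that share cells and lines. Sycp1, Ddx4 and Tex101 were in too few cells to be ranked.

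Genes of tissues not present in the cultures were looked at for how often genes of other tissues are read in these libraries. Of 20 such genes 12 had a row. Acta1, skeletal muscle actin, was the exception among them, with 8.23 and 78.4 CPM in 5ar1 and 5ar2 and 111 and 26.5 CPM in AFX6 and AF32. The next by level were Myh6 (cardiac myosin), Gfap (astrocyte filament) and Apoa1 (apolipoprotein of liver and gut), whose highest line sums were 2.682, 0.931 and 0.745 CPM. Over the 11 that reached 1 CPM in a kept cell, the median of the highest share of cells in any line was 2.222%, against 8.89% for the 4 members, 4.72% for the 28 other germline genes and 17.8% for the 26358 genes that did so. Sycp3, at 41.1% of 5ar2 cells, was above each of the 12 genes, the highest of which was Acta1 with 31.1% of 5ar2 cells. In 5ar1 the highest of the 12 was at 12.2% of cells, under the 25.6% of Sycp3, and in AF32 at 5.0%, under the 8.75% of Sycp1. AFX6 went the other way, with the highest of the 12 at 27.3% of cells, above the 6.06% of Sycp3, the highest member there. DESeq2 gave 7 of these genes an adjusted p. It called 1 of them higher in FS cells, Krt5 (named after its values were seen, DESeq2 adjusted p = 0.00459, edgeR adjusted p = 0.190), and 0 lower.

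Markers of other cells were looked at beside these results. The 4 germ cell factors Prdm1, Prdm14, Nanos3 and Dppa3 summed to 3.10 CPM in AF32, 1.373 in 5ar2, 0.531 in 5ar1 and 0.511 in AFX6, and so were not highest where Sycp3 was. In the wider list of 7 specification genes, Kit (the receptor of stem cell factor) reached 4.91 CPM, Tfap2c 2.09, Prdm1 1.7229 and Nanos3 1.4 as their highest line sums, and none was at 1 CPM in 20% of the cells of any line. The 4 fibroblast genes with a row summed to 9.46, 49.3, 18.5 and 11.1 CPM in 5ar1, 5ar2, AFX6 and AF32, highest in the line with the most Sycp3. The part of such cells in the Sycp3 values was not tested. Hand1, one of 2 trophoblast genes with a row and also a gene of early mesoderm, stood at 23.5 CPM in 5ar1 and at up to 0.261 CPM in the other lines. Sox17 and Gata4 of the extraembryonic endoderm reached at most 0.606 and 0.430 CPM, and the neural genes Sox1 and Pax6 at most 8.36 and 4.13 CPM. Sox17 and Gata4 had no count in either EpiSC line. DESeq2 called both higher in FS cells (DESeq2 adjusted p = 0.00069 and 0.00284), and also Hand1 (0.0219), and called Prdm1 lower (0.00976). Sox17 and Gata4 were each at 1 CPM or more in 1.111% of the cells of either FS line. Their calls thus rest on few FS cells over a group at 0, and no support is drawn from them. The call of Hand1 rests on 5ar1 alone. Both trophoblast genes together summed to 0.0322 CPM in 5ar2, below the 0.198 of AFX6 and 0.261 of AF32.

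The enzymes and repressors known to act on these promoters all had counts in every line. In each line 9 of the 10 genes of the methylation machinery were at 1 CPM or more in at least 20% of the cells. The remaining gene reached 1 CPM in at most 12.2% of cells, in 5ar2, and in a smaller share in the other lines. Dnmt3b, the de novo DNA methyltransferase, stood at 2243 and 1434 CPM in 5ar1 and 5ar2 and 493 and 616 CPM in AFX6 and AF32, with a log2 fold change of 1.7235 (SE 0.28, edgeR adjusted p = 0.190, DESeq2 adjusted p = 7.72e-05). Uhrf1 (310 and 239 CPM against 171 and 209), which brings Dnmt1 to replicating DNA, Dnmt3a (285 and 173 against 151 and 271) and Hells (165 and 226 against 165 and 126), a remodeller needed for methylation, were in over 90% of the cells of each line. Of 10 genes of the methylation machinery, a list that also holds the Tet enzymes and Tdg, which act in demethylation, 0 were called by edgeR (2 at an unadjusted p under 0.05), with a median log2 fold change of 0.37. DESeq2 called 1 of them higher in FS cells, Dnmt3b, and 1 lower, the demethylating enzyme Tet2 (named after its values were seen), at 6.844 and 4.02 CPM against 15.2 and 41.4 (log2 fold change -2.38, edgeR adjusted p = 0.201, DESeq2 adjusted p = 0.00249). The 18 repressors all had rows and were at 1 CPM or more in 24.2% of cells or more in every line. Their 4 highest, the deacetylases Hdac2 (407 to 471 CPM) and Hdac1 (189 to 352), the histone methyltransferase subunit Wdr5 (165 to 191) and the E2F partner Tfdp1 (100 to 182), were found in over 84% of the cells of each line. For the repressors 0 were called by edgeR (4 at an unadjusted p under 0.05) and the median log2 fold change was 0.42.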

How the data were processed

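Single cells of 4 mouse lines were sorted into wells and sequenced by Smart-seq2, without molecular identifiers. The authors aligned reads with STAR 2.7.3a to GRCm38.p6 and counted uniquely mapped reads per gene with featureCounts 2.0.0. The deposited values used here are raw counts. The other deposited table holds sctransform values, a normalized score of the authors on the scale of counts, and served as an alternative only. Of 21951 protein-coding genes of GENCODE M21, 4777 (21.8%) have no row in the table received, among them all 13 mitochondrial ones, and these were not analysed here.

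Lines come from the sample labels. Cells with at least 3000000 counts were kept, and a count of 0 then allows up to 3 counts of a total. Shares of cells have exact Clopper-Pearson 95% intervals from scipy 1.17.1, which cover counting error only. Cells are not replicates, so counts were summed per line. The sums went into edgeR's quasi-likelihood test (version 4.0.16, R 4.3.3) after filterByExpr and TMM scaling, with Benjamini-Hochberg adjustment, and the procedure was tested on simulated data. DESeq2 and limma were alternatives. limma used log2(mean CPM + 0.1). Doublets were not called, since cells were sorted to 1 a well. That the lines of a group are separate derivations is as the labels name them, and p-values measure the spread between lines.

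The members, the lists and the tests were chosen with earlier results of these data known. All members are named, and of each other list the 4 genes with the highest CPM in any line sum. Promoters were taken from RefSeq windows on GRCm38.p6 and gene positions from GENCODE M21. Alternatives covered the normalization, the filter, the tool, the depth minimum, thinning, cells with few genes and each line in turn.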

Additional observations from a re-analysis of the deposited data

Results flagged for a closer look

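The 58 cells under the depth minimum, which enter no comparison above, also held reads of the germline genes. Sycp3 had 492 counts in them, 477 from the 6 cells of 5ar2. Sycp1 had 122 counts, 121 of them from the 16 cells of AF32, and Ddx4 had 41 counts, 27 of them from the 30 cells of AFX6 and 14 from 5ar2. Ddx4 was thus read in an EpiSC line among cells left out for depth, although it had 0 counts in the kept cells of both EpiSC lines.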

How the results depend on the processing

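No gene and no member was called by edgeR or limma under any other setting tried: DESeq2's size factors, no filter on low counts, a minimum of 2000000 or 4000000 counts or none, thinning, leaving out cells with few genes, no fold limit or one of 1, and each line left out in turn (0 called throughout). DESeq2 called 875 genes higher and 933 lower and 3 members (Sycp3, Ddx4 and Tex101), with a log2 fold change of 2.97 for Sycp3. The cause of the difference between the tools was not tested. Without each line in turn, the log2 fold change of Sycp3 ran from 2.281 to 4.22 and that of Sycp1 from 1.00 to 2.202. That of Sycp1 was 0.40 at a minimum of 2000000 counts, where a cell of AF32 with 108 counts of it enters. That of Ddx4 was 2.703 with no minimum, where its reads in shallow AFX6 cells enter, and under every setting without such reads it is a fitted value over a group at 0. The log2 fold changes of Sycp3, Sycp1 and Ddx4 were above 0 in all settings, and Tex101 was not followed across them. No paired analysis was possible because the numbers in the labels name cells of a line and pair no lines. Shares of 1 to 3 cells a line limit what can be said of Ddx4, and 2 lines a group limit every test.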
